A study of Mus musculus with 57 samples.

Results

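In all, 10 genes of iron transport and storage were followed by RNA sequencing in CD11b-positive cells of mouse brain, which the labels call microglia. They are Slc11a1, Slc11a2, Slc39a14, Tfrc, Trf and Steap3, which bring iron to or across membranes, Slc40a1, which exports it, Fth1 and Ftl1, which store it, and Ncoa4, which returns stored iron to the lysosome. The 10 genes were chosen by symbol, out of 50565 genes in the count table of one experiment and 53278 in that of the other, and all 10 passed the filter on low counts in both. All animals were wild-type (WT) mice or littermates deficient in P2RY12 (KO), the purine receptor that marks resting microglia. The labels give neither the allele nor whether the loss is limited to some cells. The first experiment compared the sexes, with 5 female KO, 4 female WT, 5 male KO and 4 male WT adults, and carries no treatment label. The second held animals labelled LPS, given lipopolysaccharide into the peritoneum at 1 mg/kg, or ns, a term the labels do not define, with 8 KO ns, 8 KO LPS, 8 WT ns and 9 WT LPS libraries. The labels give no sex for these libraries and no time after injection. WT LPS 8 and 9 differed by little more than sampling noise and were summed and counted as 1 sample.

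Cells take up iron bound to transferrin (Trf) through the transferrin receptor (Tfrc), reduce it in the endosome with Steap3 and pass it to the cytosol through Slc11a2. Slc39a14 carries iron that is not bound to transferrin, Slc11a1 moves metal out of the phagosome, and ferroportin (Slc40a1) is the only known iron exporter of mammals. Macrophages and microglia are known to hold back iron during inflammation, with more ferritin and less ferroportin. Part of the control lies in the messenger RNA itself, where a hairpin called the iron-responsive element binds the proteins encoded by Aco1 and Ireb2. In a 5′ untranslated region (UTR) the bound hairpin blocks translation, and in the 3′ UTR of Tfrc bound hairpins keep the RNA from being degraded.

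These hairpins were searched for because they tell which members can be controlled after transcription, a step that RNA counts read only in part. The pattern was a C, then 5 bases that pair (G with T allowed) around the loop CAGTGN, within an annotated UTR. It occurred in 160 of 21842 protein-coding genes (0.733%) and in 4 of the 10 members. The sequences, read from the GENCODE annotation on GRCm38 in the sense direction, run 5′ to 3′ with the loop in capitals:
Slc40a1, 5′ UTR, chr1:45925466-45925492, minus strand: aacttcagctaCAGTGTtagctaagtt
Fth1, 5′ UTR, chr19:9982733-9982759, plus strand: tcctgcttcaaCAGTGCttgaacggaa
Ftl1, 5′ UTR, chr7:45459780-45459806, minus strand: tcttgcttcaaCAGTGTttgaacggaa
Tfrc, 3′ UTR, chr16:32631220-32631246, plus strand: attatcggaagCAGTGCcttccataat
Tfrc, 3′ UTR, chr16:32631599-32631625, plus strand: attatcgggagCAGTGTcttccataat
Tfrc, 3′ UTR, chr16:32631664-32631690, plus strand: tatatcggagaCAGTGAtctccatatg
Tfrc, 3′ UTR, chr16:32631711-32631737, plus strand: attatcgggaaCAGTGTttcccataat
The exporter and both ferritin chains each held 1 match ahead of the coding sequence, and the receptor held 4 behind it. A match is a description of the letters, and a gene without one may carry a hairpin of another form.

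On GRCm39, the build of the first experiment's count table, 3 members lie on chromosome 1 (Slc11a1 at 74414318 to 74429974, Slc40a1 at 45947230 to 45965690 and Steap3 at 120154137 to 120198810). The others are Ftl1 (chromosome 7, 45107368 to 45109310), Trf (chromosome 9, 103086075 to 103107485), Ncoa4 (chromosome 14, 31881884 to 31901210), Slc39a14 (chromosome 14, 70540916 to 70588873), Slc11a2 (chromosome 15, 100285779 to 100322090), Tfrc (chromosome 16, 32427714 to 32451612) and Fth1 (chromosome 19, 9957964 to 9962475). Slc11a2, Fth1 and Steap3 each overlap 1 other gene in that table, whose counts came to 1.06%, 1.66% and 1.38% of theirs. Ferritin has near-identical processed copies, so Fth1 and Ftl1 are uncertain to the extent of these. The copy Ftl1-ps1 held 17.5% as many counts as Ftl1 in the first experiment and 0.0687% in the second. For Fth1 the copy with the most counts held 0.344% in the first (Fth1-ps) and 0.0291% in the second (Fth-ps2).

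Column totals were 58.5 M to 318.5 M counts in the first experiment and 15.9 M to 168.4 M in the second. P2ry12 fell by 3.42 ± 0.12 on the log2 scale in KO over both sexes of the first experiment (adjusted p = 4.52e-13, edgeR). In the second experiment 4 WT libraries went against their treatment label by both P2ry12, which LPS lowers, and Saa3, an acute-phase gene that LPS raises. The library labelled WT ns 1 held 481 CPM (the count per M counts of the scaled library total) of P2ry12 and 1781 of Saa3, and that labelled WT ns 5 held 927 and 2491, against at least 3516 and at most 64.4 in the other WT ns libraries. The library labelled WT LPS 1 held 4461 and 1.59, and that labelled WT LPS 6 held 12150 and 3.21, against at most 1063 and at least 1418 in the other WT LPS samples. All 4 are the WT libraries whose library number is 2, so the WT response of each member to LPS is given both as labelled and with these libraries as groups of their own. Separately, 6 libraries, 2 of them among these 4, stood apart on the first principal component of all genes (41.8% of the variance): KO ns 5, KO ns 6, KO LPS 5, WT LPS 7 and the libraries labelled WT ns 5 and WT LPS 6. Mitochondrially encoded genes took 2.69% to 8.55% of their counts, against 0.787% to 1.81% in the others. The 9 microglial markers, P2ry12 among them, together ran from 9434 to 49170 CPM over the second experiment, with none at 0. Their median sum was 26420 CPM in KO ns and 14880 in KO LPS, and by label 24580 in WT ns and 15760 in WT LPS. Markers of other cell types are given where a result meets them.

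LPS was followed first in KO, where no library went against its label. Under LPS the metal carriers Slc39a14, Slc11a2 and the reductase Steap3 rose, the storage chain Fth1 rose, and the exporter Slc40a1 and the ferritin receptor Ncoa4 fell. These 6 of 10 members were called (edgeR's quasi-likelihood test, adjusted p under 0.05), 4 higher and 2 lower, beside 22.3% of all 15857 genes tested (1637 higher and 1905 lower). DESeq2 called the same 6 members, beside 27.1% of genes. The median log2 fold change of all genes was -0.02. Fewer cells of a type and less RNA per cell cannot be told apart in these bulk samples.

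**Figure D1:**
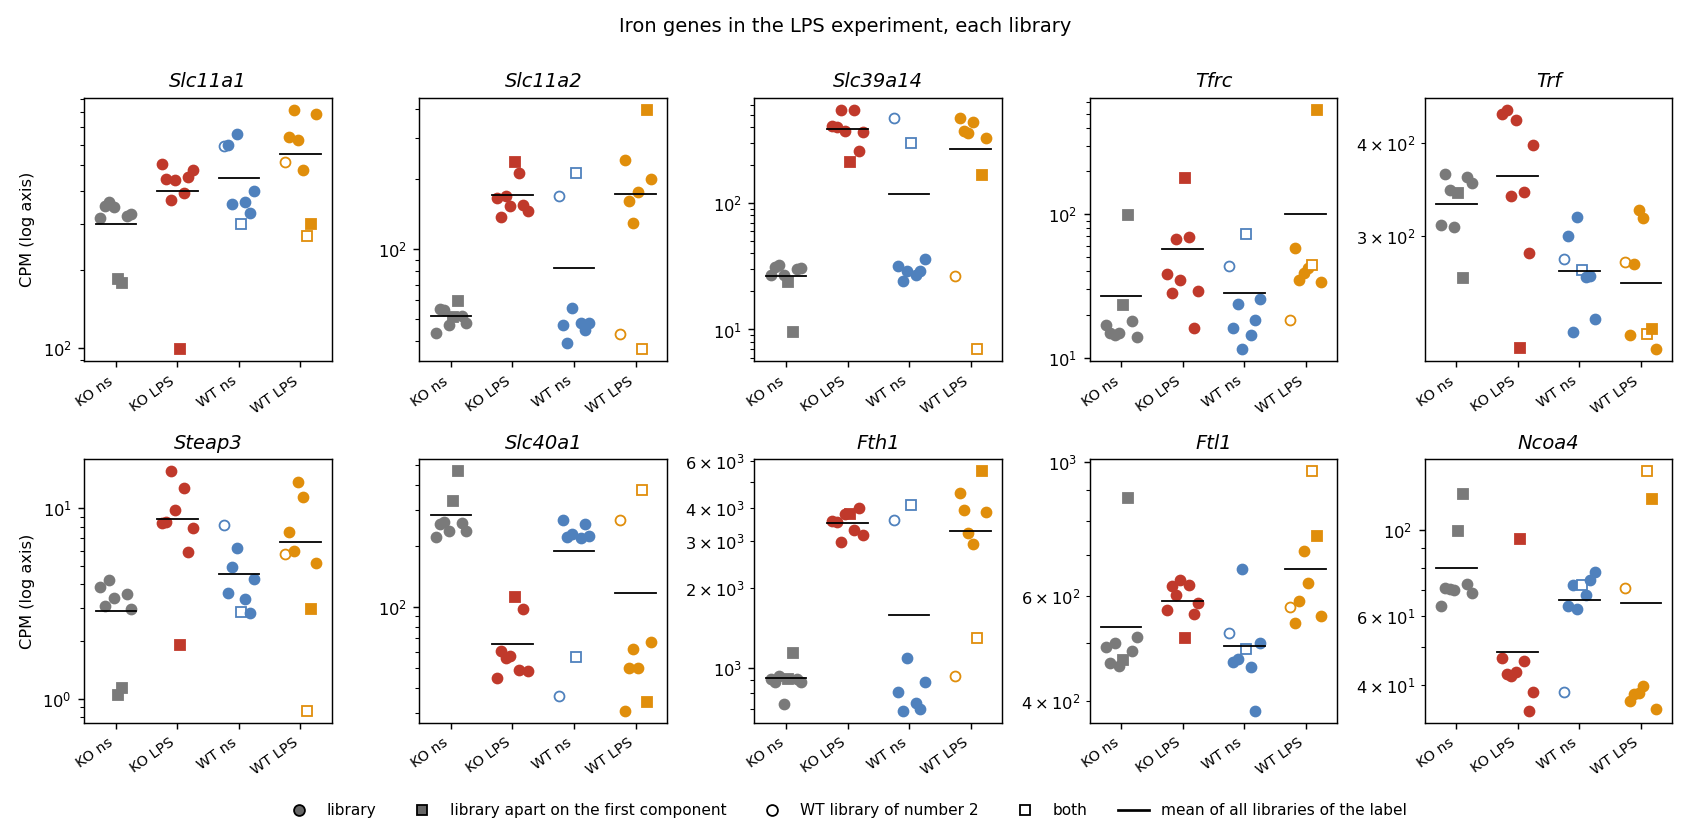
Level of each iron gene in every library of the LPS experiment (CPM, log axis), by genotype and treatment label; squares are the 6 libraries apart on the first component, open symbols are WT libraries of number 2, and bars are the means of all libraries of a label. The open symbols of Slc11a2, Slc39a14, Slc40a1 and Fth1 lie with the opposite treatment label, while the filled WT symbols lie near the KO symbols of the same treatment.

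Slc39a14, the carrier of iron not bound to transferrin, changed most. Its level in KO ns libraries ran from 9.49 CPM (KO ns 6) through a median of 28.5 to 32.2, and in KO LPS libraries from 212 (KO LPS 5) through 384 to 550.5. Even the lowest KO LPS library was above every KO ns library. The log2 fold change was 3.88 ± 0.70 (SE, adjusted p = 0.000534), a 14.7-fold rise. In WT as labelled it was 1.20 ± 0.63 (adjusted p = 0.252), and with the number 2 libraries apart 3.55 ± 0.31 (adjusted p = 1.71e-09). The 6 other WT ns libraries held 24.3 to 36.4 CPM and the 6 other WT LPS samples 166.5 to 468.6, without overlap. Of the number 2 libraries, those labelled ns held 301 and 473 CPM and those labelled LPS held 6.97 and 26.8.

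Slc11a2, which passes endosomal iron to the cytosol, ran from 43.5 to 59.7 CPM in KO ns (median 51.4) and from 136.9 to 236.4 in KO LPS (median 159.8). The groups did not overlap, and the log2 fold change was 1.73 ± 0.38 (adjusted p = 0.00178). In WT it was 1.04 ± 0.37 as labelled (adjusted p = 0.133) and 2.17 ± 0.19 with number 2 apart (adjusted p = 1.31e-09). There the 6 WT ns libraries held 39.4 to 55.7 CPM and the 6 WT LPS samples 128.9 to 398, the highest being WT LPS 7, one of the libraries apart. Without the 6 libraries apart as well, the WT value was 1.96 ± 0.13 and the KO value 1.71 ± 0.12.

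Steap3, the endosomal ferric reductase, was a scarce transcript. KO ns libraries held 1.04 to 4.20 CPM (median 3.23) and KO LPS libraries 1.92 to 15.7 (median 8.42). The only KO LPS library inside the ns range was KO LPS 5. The rise of 1.62 ± 0.37 was called (adjusted p = 0.0023), and the 6 libraries apart held 0.861 to 2.96 CPM, against 2.81 or more in every other sample. In WT the rise was 0.58 ± 0.36 as labelled (adjusted p = 0.326) and 0.89 ± 0.40 with number 2 apart (adjusted p = 0.0935). It was called in WT only in fits that left libraries out, at 1.05 ± 0.24 (adjusted p = 0.000826) without the number 2 and the 6 apart.

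Tfrc is the transferrin receptor that carries the 3′ hairpins above, and a few libraries held far more of it than the rest. In KO ns it ran from 14.0 to 98.5 CPM (median 16.0), where KO ns 6 held 98.5 and the next library 23.5. In KO LPS it ran from 16.0 to 177.4 (median 36.6), where KO LPS 5 was highest. The difference of 1.20 ± 0.56 did not pass the test (adjusted p = 0.121). The highest WT value, 532.7 CPM in WT LPS 7, was over any other library. In WT as labelled the difference was 1.52 ± 0.57 (adjusted p = 0.141), and with number 2 apart Tfrc was called (2.38 ± 0.60, adjusted p = 0.00346). Without the 6 libraries apart and number 2 the rise was called in both genotypes, at 1.39 ± 0.27 in KO (adjusted p = 0.00017) and 1.20 ± 0.29 in WT (adjusted p = 0.00139). KO ns then held 14.0 to 18.0 CPM and KO LPS 16.0 to 69.7, still with 1 LPS library, KO LPS 7, inside the ns range. The erythroid marker sum, which matters because red cell precursors are rich in Tfrc, ran from 4.06 to 22300 CPM over the LPS experiment, with all 5 markers detected in every library. The highest sum was in the library labelled WT LPS 6, with 43.9 CPM of Tfrc, and WT LPS 7, with the most Tfrc, had a sum of 175.9. The part of such cells in the Tfrc levels was not tested.

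Trf and Slc11a1 were not called under LPS as labelled in either genotype. Trf, the secreted iron carrier, ran from 264 to 363.5 CPM in KO ns and from 213 to 443 in KO LPS (0.11 ± 0.13, adjusted p = 0.607), and its WT value was -0.06 ± 0.13 as labelled (adjusted p = 0.83) and -0.04 ± 0.16 with number 2 apart (adjusted p = 0.891). Slc11a1, the phagosomal metal pump of macrophages, held at most 363 CPM in KO ns (median 324) and from 99.2 to 508.5 in KO LPS (0.43 ± 0.24, adjusted p = 0.204). Its WT value was 0.32 ± 0.24 as labelled (adjusted p = 0.415) and 0.44 ± 0.27 with number 2 apart (adjusted p = 0.246). KO ns 5, KO ns 6 and KO LPS 5, all libraries apart, were its 3 lowest KO libraries. Without the 6 libraries apart and number 2, Slc11a1 was called higher under LPS in KO (0.42 ± 0.14, adjusted p = 0.0127) and in WT (0.58 ± 0.15, adjusted p = 0.00207). In KO every one of the remaining LPS libraries, at 369 to 508.5 CPM, was then above every ns library, at 315 to 363. In WT the groups still overlapped, at 330 to 658 CPM in 6 ns libraries and 481 to 817 in 5 LPS samples.

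The exporter Slc40a1 moved against the carriers. KO ns libraries held 221 to 468 CPM (median 257.8) and KO LPS libraries 44.9 to 112.7 (median 56.6), without overlap. Slc40a1 fell by 2.12 on the log2 scale (SE 0.46, adjusted p = 0.00168), leaving 0.231 of the ns level. In WT as labelled the change was -0.70 ± 0.44 (adjusted p = 0.333), and with number 2 apart -2.28 ± 0.22 (adjusted p = 7.16e-09). The 6 WT ns libraries then held 220 to 267.5 CPM and the 6 WT LPS samples 30.7 to 67.3, while the number 2 libraries labelled ns held 36.3 and 56.6. Border-associated macrophage markers, another CD11b-positive source of Slc40a1, had a median sum of 391 CPM in KO ns (196 to 614) and 165 in KO LPS (91.4 to 298), with none of the 7 at 0, and their part in the fall was not tested.

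Of the 2 ferritin chains, the heavy chain Fth1 rose and the light chain Ftl1 was not called as labelled. Fth1, which oxidises iron for storage, went from 733 to 1139 CPM in KO ns (median 907) to 2977 to 4005 in KO LPS (median 3560), a rise of 1.95 ± 0.37 (adjusted p = 0.000663). All 8 LPS libraries were far above all 8 ns libraries. In WT the rise was 1.05 ± 0.36 as labelled (adjusted p = 0.13) and 2.27 ± 0.16 with number 2 apart (adjusted p = 1.96e-11). Ftl1, which helps form the iron core, held 459 to 872 CPM in KO ns (median 489) and 510 to 636.5 in KO LPS (median 593), with 872 in KO ns 6 only. Its difference of 0.15 ± 0.15 did not pass the test (adjusted p = 0.518). In WT it was 0.42 ± 0.15 as labelled (adjusted p = 0.131) and 0.34 ± 0.16 with number 2 apart (adjusted p = 0.103). Without the 6 libraries apart and number 2 Ftl1 was called higher in KO (0.32 ± 0.09, adjusted p = 0.00371) and WT (0.31 ± 0.10, adjusted p = 0.00928), a 1.25-fold and 1.24-fold rise beside 4.03-fold and 4.53-fold for Fth1. Whether the chains differed from each other was not tested. Fth1, Ftl1 and Slc40a1 all carry a 5′ hairpin, and at the RNA level under LPS in KO Fth1 was called higher, Slc40a1 lower and Ftl1 neither as labelled. Protein was not measured.

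Ncoa4, the receptor that delivers ferritin to the lysosome for iron release, held 63.7 to 123.7 CPM in KO ns (median 70.7) and 34.2 to 94.8 in KO LPS (median 42.9). Apart from KO LPS 5, every KO LPS library was at or below 47.0 and so under every ns library. Ncoa4 fell by 0.71 on the log2 scale (SE 0.25, adjusted p = 0.0364). That call was lost in 13 of 32 fits that left out 1 sample, with an adjusted p of up to 0.126 (without KO ns 6). Without the 6 libraries apart and number 2 it fell by 0.72 in KO (SE 0.07, adjusted p = 5.13e-09) and by 0.89 in WT (SE 0.07, adjusted p = 9.85e-10). In WT the change was -0.07 ± 0.25 as labelled (adjusted p = 0.877) and -0.52 ± 0.23 with number 2 apart (adjusted p = 0.0959).

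**Figure D2:**
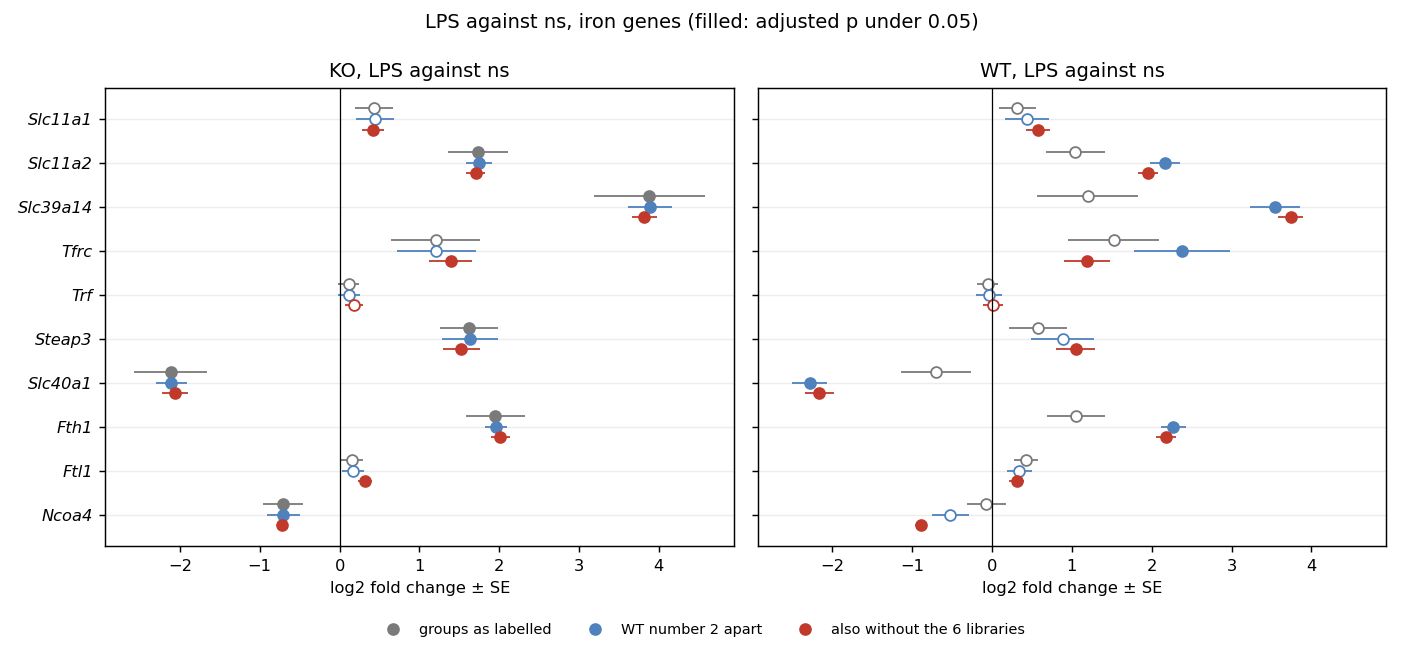
Log2 fold change of LPS against ns (x axis, ± SE) for the 10 iron genes in KO (left) and WT (right) in 3 fits, with filled points called at an adjusted p under 0.05. Slc39a14 lies at 3.88, 3.89 and 3.82 in KO and at 1.20, 3.55 and 3.74 in WT, where the fit as labelled is nearer to 0, while Ftl1 lies at 0.15, 0.16 and 0.32 in KO and at 0.42, 0.34 and 0.31 in WT.

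In WT as labelled, 0 of 10 members and 0% of all 15857 genes were called (edgeR; 4 members and 3605 genes had an unadjusted p under 0.05, and DESeq2 called 1 member, Fth1, and 732 genes, 4.62%). With the 4 number 2 libraries as groups of their own, 5 of 10 members were called in WT, beside 28.1% of 17954 genes: Slc39a14, Slc11a2, Tfrc and Fth1 higher and Slc40a1 lower. The KO count in that fit was again 6, beside 26.2%. With number 2 left out of all groups it was 6 in KO, beside 29.3%, and 6 in WT, beside 36.3%. Without the 6 libraries apart, but with number 2 as labelled, it was 9 in KO, beside 51.3%, and 8 in WT, beside 32.5%. Without number 2 and the 6 libraries apart 9 of 10 members were called in each genotype, all but Trf, 7 higher and 2 lower, beside 54.7% of genes in KO and 54.1% in WT. Leaving out the 6 libraries was chosen after the data were seen. Within library set 2, which holds those 6, 0 of 10 members and 0% of genes were called in KO (edgeR; 5 members had an unadjusted p under 0.05, and DESeq2 was not run within sets), with 3.94 ± 1.06 for Slc39a14 and 1.99 ± 0.59 for Fth1. Within set 1 8 members were called, beside 30.6% of genes.

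The difference between the genotypes in their LPS response was tested directly, and no member passed: as labelled the lowest adjusted p of any member was 0.416 (Slc39a14, 2.69 ± 0.90), beside 0% of genes called (0 by edgeR, 1698 at an unadjusted p under 0.05, 11, or 0.0694%, by DESeq2). At an unadjusted p under 0.05 there were 3 members by edgeR, and DESeq2 called 0. With number 2 apart the interaction of Slc39a14 was 0.34 ± 0.37 and that of Slc40a1 0.18 ± 0.28, and no gene was called (0 members and 890 genes at an unadjusted p under 0.05). Without number 2 and the 6 libraries apart 0 members and 0.00622% of genes were called.

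Neutrophils and monocytes can enter CD11b-positive fractions after LPS. The 9 neutrophil markers summed to a median of 2336 CPM in KO ns (1043 to 10250) and 3208 in KO LPS (1957 to 4555), and the 6 monocyte markers to 185 (76.97 to 1169) and 534 (378.5 to 836). In WT by label the neutrophil sums were 1810 to 15750 at ns and 2249 to 13530 at LPS, and the monocyte sums 158 to 2142 and 462 to 2444. No marker of either list was at 0 in any library, and the part of these cells in the iron gene changes was not tested.

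The iron pathway beyond the 10 members was read from 4 lists. Under LPS in KO, 3 of 13 measured genes of other iron uptake, reduction and export were called, all higher: ceruloplasmin Cp (4.01 ± 0.70, adjusted p = 4e-04), the ferroxidase that helps ferroportin release iron, the ferrireductase Steap4 (2.34 ± 0.47, adjusted p = 0.00109) and lipocalin Lcn2 (2.07 ± 0.72, adjusted p = 0.037), which binds bacterial iron carriers. Cp went from 11.5 to 29.8 CPM in KO ns to 225 to 721 in KO LPS, so the ferroxidase rose while the exporter it serves fell. Steap4 was scarce, at 0.697 to 2.79 CPM in KO ns and 1.84 to 35.6 in KO LPS, and its groups overlapped. Lcn2 spread widely in KO ns, at 17.8 to 542 CPM, and held 584 to 1087 in KO LPS, without overlap. Among genes that control iron, 1 of 7 was called, Aco1, which encodes a hairpin-binding protein (0.50 ± 0.14, adjusted p = 0.0116). Among the haem genes haem oxygenase Hmox1, which frees iron from haem, was called higher (1.20 ± 0.20, adjusted p = 0.000337). Of the 19 haem genes tested, 7 had a positive log2 fold change. None of 11 iron-sulfur cluster genes was called as labelled. Over all genes 22.3% were called in that fit, so 3 of 13 is near the background and nothing particular to the lists is read from these counts. The medians of the uptake, control and iron-sulfur lists were 0.00, 0.09 and -0.04, beside -0.02 for all genes.

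With the number 2 libraries apart the same Cp, Steap4, Aco1 and Hmox1 were called higher in WT, at 3.60 ± 0.32, 1.63 ± 0.53, 0.51 ± 0.12 and 1.32 ± 0.12. Lcn2 was not called in WT in that fit. It held 21.4 to 1304 CPM in 6 WT ns and 710 to 2385 in 6 WT LPS samples, which overlapped. In all, 2 of 13 uptake and export genes were called higher and 1 lower there, 3 of 8 control genes higher and 1 lower, and 2 of 11 iron-sulfur genes higher, beside 28.1% of all genes. In KO in the same fit 3 of 13, 2 of 8 and 1 of 11 were called higher and 1 iron-sulfur gene lower, beside 26.2%. Other genes called in WT were Fbxl5 (0.92 ± 0.28) and Nfe2l2 (0.49 ± 0.16), Herc2 (-0.91 ± 0.27), the biliverdin reductase Blvra (0.96 ± 0.28), and Glrx5 (0.82 ± 0.18) and Isca2 (0.58 ± 0.12) of cluster assembly. Nfe2l2 (0.44 ± 0.14, adjusted p = 0.0172) and Glrx5 (0.51 ± 0.16, adjusted p = 0.0155) were called higher in KO too, where Hscb was called lower (-0.46 ± 0.16, adjusted p = 0.0375). Without the 6 libraries apart and number 2, Herc2 was called lower in KO as well (-0.40 ± 0.14). Fbxl5 (0.37 ± 0.09), Blvra (0.48 ± 0.08) and Isca2 (0.34 ± 0.06) were then called higher in KO, beside 54.7% of all genes. In WT that fit gave -0.70 for Herc2, 0.65 for Fbxl5, 0.59 for Blvra and 0.50 for Isca2. Hmox1 held 31.9 to 46.6 CPM in 6 WT ns and 82.2 to 112.8 in 6 WT LPS samples. Lactoferrin Ltf, an iron-binding protein of neutrophil granules, fell by 3.44 in WT (SE 1.00, adjusted p = 0.0101), from between 39.3 and 3154 CPM at ns to between 43.9 and 251 at LPS; its groups overlapped, and WT ns 3 and WT ns 8 had the highest neutrophil sums of that experiment (15750 and 14780 CPM). As labelled, 0 genes of the 4 lists were called in WT.

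**Figure D3:**
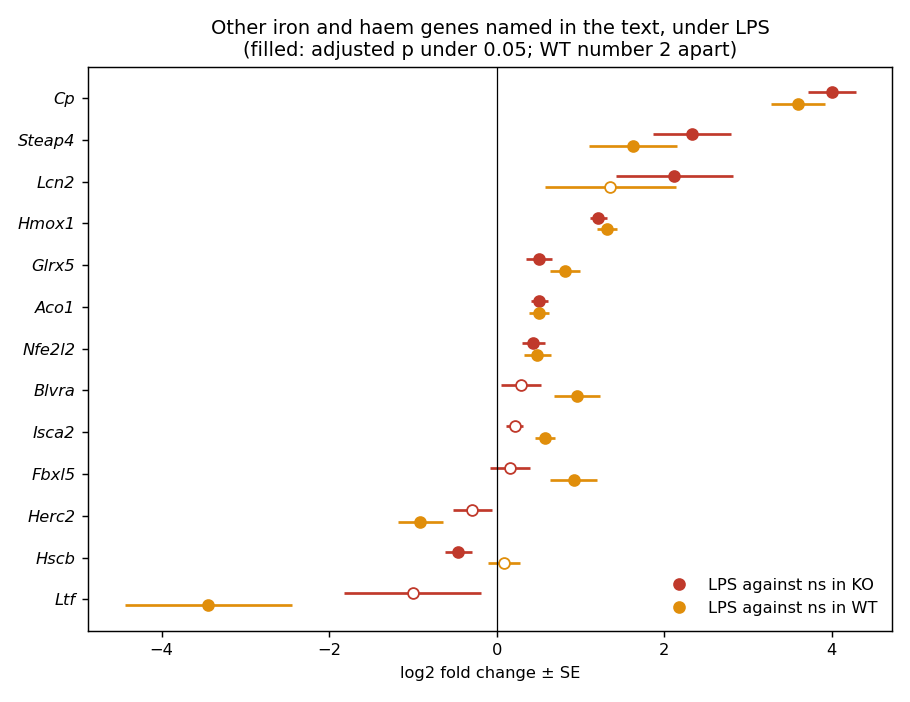
Log2 fold change of LPS against ns (x axis, ± SE) in KO and WT for genes of the 4 wider lists named in the text and called in either genotype with WT number 2 apart; filled points are called. Cp lies farthest to the right, at 4.01 in KO and 3.60 in WT, and Ltf farthest to the left, at -3.44 in WT.

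The effect of losing P2RY12 without LPS was measured in the first experiment. None of the 10 members was called over both sexes, beside 0.432% of 31709 genes (edgeR; 4 members had an unadjusted p under 0.05, and DESeq2 called 1, Trf, beside 1.13% of genes). The KO to WT fold was 1.25 for Trf and 1.2 for Fth1 and lay between 0.893 and 1.08 for the other 8 members.

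Trf held 1253, 1253, 1112 and 807 CPM in the male WT animals and 1370, 1478, 1360, 1331 and 1197 in the male KO animals. Female WT animals held 1075, 901, 1189 and 1131 CPM, and female KO animals 1347, 1461, 1285, 1361 and 1389. In females every KO animal was above every WT animal, and in males 1 KO animal lay inside the WT range. The log2 difference over both sexes was 0.32 ± 0.08 (adjusted p = 0.0997), which did not pass the test, and DESeq2 gave 0.31 ± 0.09 (adjusted p = 0.0397). Without male WT 5 and female WT 2, which held the lowest Trf of their groups, it was 0.22 ± 0.06 (adjusted p = 0.0806). Oligodendrocytes and choroid plexus also make Trf. The 7 oligodendrocyte markers summed to 139.6 to 193.5 CPM in WT and 137 to 180.6 in KO. The 3 choroid plexus markers summed to 33.7 to 519.6 in WT and 104.2 to 336 in KO, with none of either list at 0. Both sums overlapped between genotypes. The lowest choroid plexus sums, 33.7 and 60.5 CPM, were in male WT 5 and female WT 2. Female WT 1 had the highest of the female WT sums (318.9 CPM) and 1075 CPM of Trf. The part of these cells in the Trf levels was not tested.

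Fth1 held 710, 673, 658 and 910 CPM in male WT and 894, 919, 811, 766 and 700 in male KO animals. Female WT animals held 643, 835, 681 and 588 CPM and female KO animals 840, 984, 777, 949 and 917. In males the WT animal with 710 CPM lay above the lowest KO animal, with 700. The highest WT animal of each sex, male WT 5 and female WT 2, also lay among the KO animals. These 2 animals had neutrophil marker sums of 43340 and 26000 CPM, against 1388 to 7556 in the other 16. The difference over both sexes was 0.26 ± 0.08 (adjusted p = 0.284). Without male WT 5 it was called (0.32, adjusted p = 0.0421), and without both animals it was 0.38 ± 0.07 (adjusted p = 0.0035), beside 0.969% of genes called; leaving both out was chosen after the data were seen. In that fit Fth1 (0.49 ± 0.10, adjusted p = 0.012) and Ftl1 (0.51 ± 0.11, adjusted p = 0.0294) were called in females, beside 0.602% of genes, and no member was called in males, beside 0.0125% (2 members at an unadjusted p under 0.05). With all animals the female values were 0.38 ± 0.12 (adjusted p = 0.4) and 0.33 ± 0.15 (adjusted p = 0.912).

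**Figure D4:**
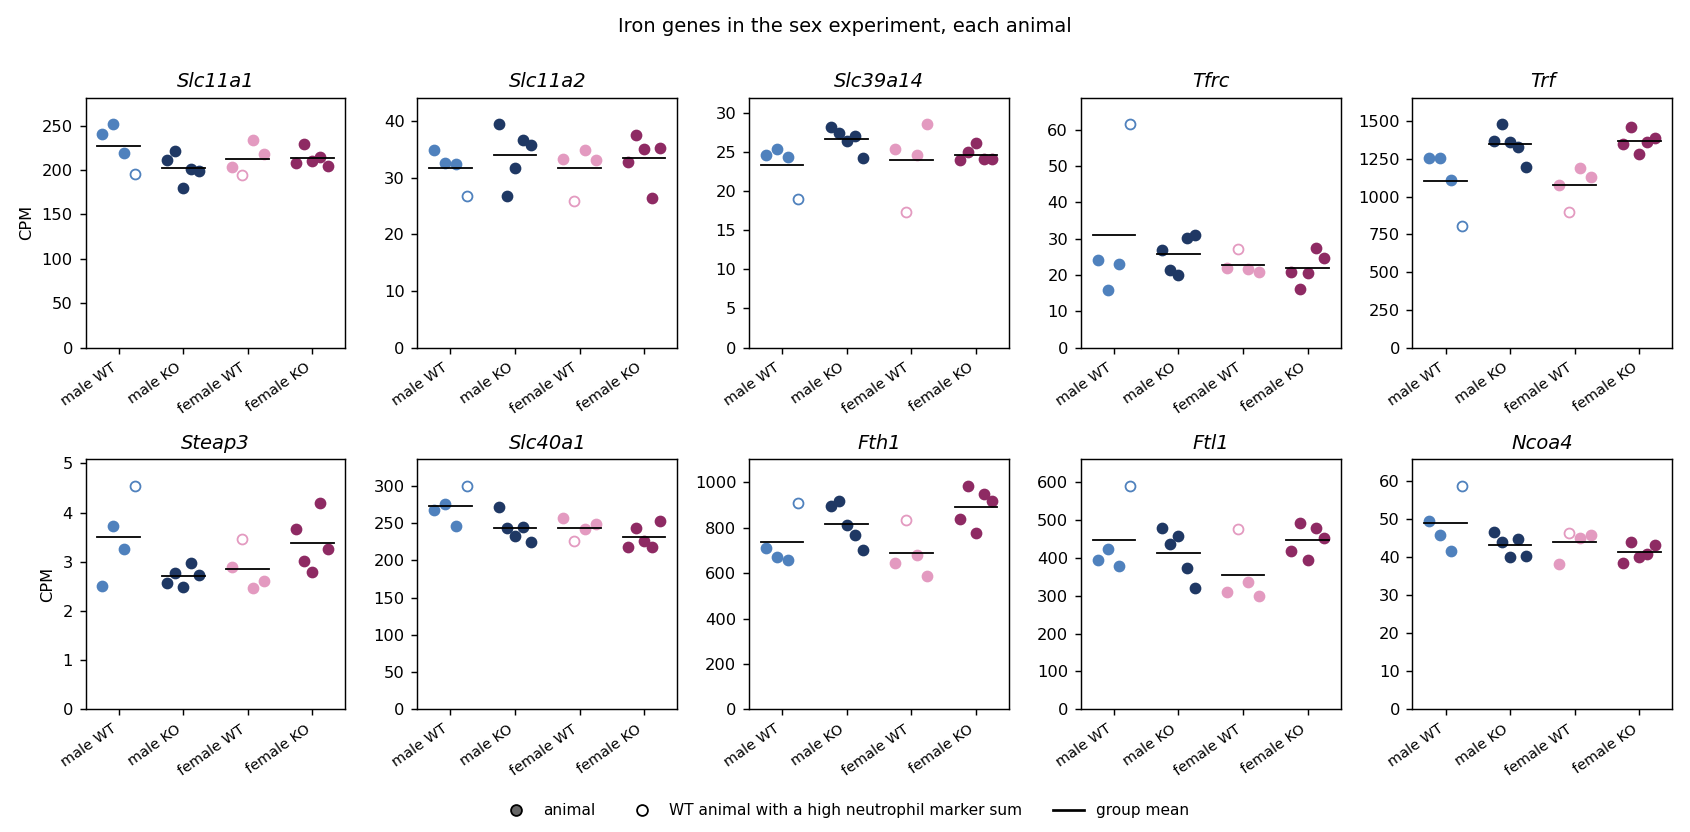
Level of each iron gene in every animal of the sex experiment (CPM, axis from 0), by sex and genotype; open circles are male WT 5 and female WT 2, the animals with the highest neutrophil marker sums, and bars are group means. The open circles are the lowest of their group for Trf, Slc39a14 and Slc11a2 and the highest of their group for Fth1, Ftl1 and Tfrc.

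The other 8 members had smaller differences between genotypes in the first experiment, and none passed the test. Slc40a1 was -0.12 ± 0.05 (adjusted p = 0.546) and Ncoa4 -0.14 ± 0.06 (adjusted p = 0.552), and Slc11a1 was -0.08 ± 0.06, Slc11a2 0.09 ± 0.08 and Slc39a14 0.12 ± 0.08. Tfrc was the least certain at -0.16 ± 0.21, with 61.4 CPM in male WT 5 against 15.8 to 30.9 in the other 17 animals. Steap3 held 2.46 to 4.54 CPM in all 18 animals (-0.07 ± 0.12), and Ftl1 differed by 0.11 ± 0.11. Within males 0 of 10 members were called, beside 0.00946% of genes, and within females 0, beside 0.164% (3 members each had an unadjusted p under 0.05, and DESeq2 called 0 in both, beside 0.0851% and 0.662%). Of the wider lists 1 gene was called over both sexes, beside 0.432% of all genes: Hscb, a co-chaperone of iron-sulfur cluster assembly (0.46 ± 0.06, adjusted p = 0.00174). It was 1 of 12 iron-sulfur genes tested, and none of 18 uptake and export, 10 control and 21 haem genes was called. In the LPS experiment no iron-sulfur gene was called between the genotypes at ns or LPS, as labelled or with number 2 apart.

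The sexes were compared in WT. Female against male WT gave 0 of 10 members (0.0725% of genes called; 0 members at an unadjusted p under 0.05 and 0 by DESeq2, beside 0.483%), with the largest differences in Tfrc (-0.44 ± 0.32) and Ftl1 (-0.33 ± 0.16, adjusted p = 0.667). Tfrc held 15.8 to 61.4 CPM in male WT and 20.8 to 27.1 in female WT animals. Leaving out 1 animal at a time moved its difference between -0.66 and 0.12. The test of whether the KO effect differed by sex called 0 members and 0% of genes (edgeR; 1 member, Steap3 at 0.62 ± 0.25, had an unadjusted p under 0.05, and DESeq2 called 0).

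In the LPS experiment KO was compared with WT at each treatment. As labelled, 0 of 10 members were called at ns, beside 0.114% of genes, and 0 at LPS, beside 0.126% (edgeR; 4 members and 1 member had an unadjusted p under 0.05; DESeq2 called Slc39a14 lower at ns, beside 0.99%, and Trf higher at LPS, beside 0.851%). With number 2 apart 0 members were called at either treatment, beside 0.0891% and 0.078% (1 and 2 at an unadjusted p under 0.05), and 0 without the 6 libraries apart as well, beside 0.348% and 0.28% (2 and 3). The Slc39a14 value at ns, -2.16 ± 0.65 as labelled (adjusted p = 0.232), was -0.21 ± 0.26 with number 2 apart, where the KO libraries, at 9.49 to 32.2 CPM, overlapped the 6 WT libraries, at 24.3 to 36.4.

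The difference in Trf was positive here too, at 0.30 ± 0.13 at ns (adjusted p = 0.544) and 0.47 ± 0.14 at LPS (adjusted p = 0.229), and 0.30 ± 0.15 and 0.46 ± 0.15 with number 2 apart. KO LPS libraries held 213 to 443 CPM of Trf and WT LPS samples 212 to 326. Slc11a1 differed by -0.57 ± 0.24 at ns (adjusted p = 0.516) and -0.46 ± 0.24 at LPS (adjusted p = 0.707), and by -0.60 ± 0.25 at both with number 2 apart (adjusted p = 0.486 and 0.716). The 8 KO ns libraries held at most 363 CPM of Slc11a1, while WT ns ran from 298.5 to 658, with WT ns 2, WT ns 4 and the library labelled WT ns 1 at 591 or more. None of these values of Trf and Slc11a1 passed the test. In the first experiment Slc11a1 lay at 180 to 251 CPM in all 18 animals.

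**Figure D5:**
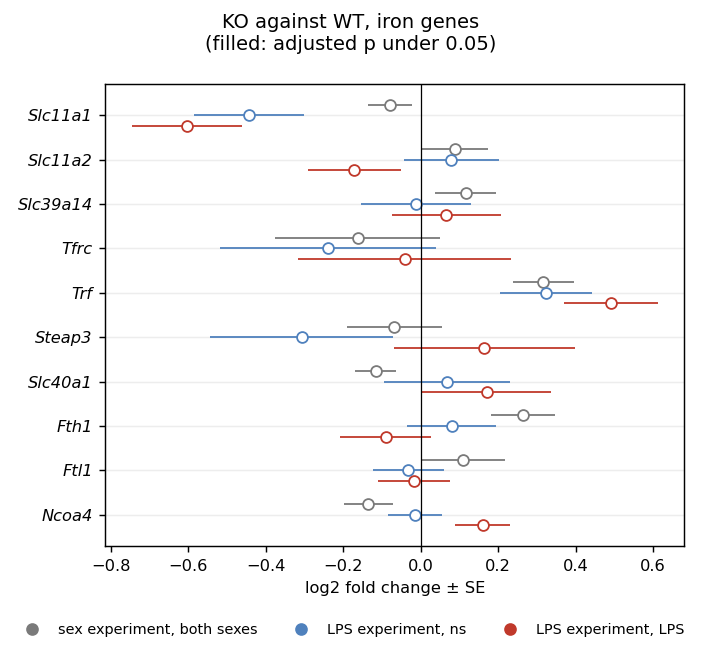
Log2 fold change of KO against WT (x axis, ± SE) for the 10 iron genes in the sex experiment over both sexes with all animals, and in the LPS experiment at ns and at LPS without number 2 of WT and the 6 libraries apart. All points are open, meaning none was called; Trf lies to the right in all 3 comparisons (0.32, 0.32 and 0.49) and Slc11a1 to the left (-0.08, -0.44 and -0.60).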

How the data were processed

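The authors deposited raw counts per gene, 1 table per experiment, as whole numbers without normalization; per the submitters' processing notes STAR 2.6.1, featureCounts, Subread, FastQC and DESeq2 were used with GRCm39, with no role or order given. Strand setting is not given in the sources used here. Of the counts in the first experiment, 79.0% to 89.2% of those from 1 to 20 were even, against 39.7% to 45.6% in the second, so the tables were fitted separately. Libraries were polyadenylated RNA; 6 repeat libraries of the 57 listed have no column and were not analysed here, and 0 columns lacked a sample. The labels do not say that samples of a group, called animals in the first experiment, come from separate animals, so p-values measure the spread between these samples. WT LPS 8 and 9 (chi-square per degree of freedom 1.86, against 8.32 or more for other pairs of a group) differed by little more than sampling noise and were summed, leaving 32 samples.

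Genes were filtered with filterByExpr (31709 and 15857 kept), scaled by TMM and tested with edgeR 4.0.16 (R 4.3.3), quasi-likelihood with robust dispersions, a mean per group, and the library set as a covariate for LPS. P-values were adjusted by Benjamini-Hochberg over all genes of a contrast; called means under 0.05. Log2 fold changes carry their SE. For edgeR this was the absolute log2 fold change divided by the square root of the test's F statistic. Levels are CPM on TMM-scaled totals. The code was tested on simulated data. Alternatives were DESeq2 1.42.0, RLE scaling, other filters, fewer groups or libraries, each library set and a replicate block. All 10 members are named, and up to 6 called genes of each wider list; 1 of these is not reported here. Members and lists were chosen with earlier results of these data known. Hairpins were searched in GENCODE M21 on GRCm38. Counts cover sampling error only as far as reads are independent molecules, which was not checked.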

Additional observations from a re-analysis of the deposited data

Results flagged for a closer look

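Within a group, 1 library stood far from the next for 11 of 80 pairs of a member and a group, by Dixon's test of the gap against the range, which chance flags in about 1 of 20. Of these, 8 were libraries apart on the first component. KO ns 6 was highest for Tfrc (98.5 CPM), Ftl1 (872 CPM) and Slc40a1 (467.6 CPM) and lowest for Slc39a14 (9.49 CPM). KO LPS 5 was lowest for Slc11a1 (99.2 CPM) and highest for Tfrc (177.4 CPM) and Ncoa4 (94.8 CPM). WT LPS 7 was highest for Tfrc, at 532.7 CPM against 57.9 in the next. The library labelled WT ns 1 was lowest for Ncoa4 (38.2 CPM against 62.6). In the sex experiment female WT 1 was lowest for Ncoa4 (38.2 CPM against 45.2), and male WT 5 was lowest for Slc39a14 (18.95 CPM against 24.4).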

How the results depend on the processing

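In KO the count of members called under LPS was 5 to 9 in 14 of 15 alternatives and 0 within library set 2; leaving out 1 sample gave 5 to 7. In WT it was 5 with number 2 apart, 6 without number 2 in any group, 8 without the 6 libraries apart, 9 without both, 1 (Fth1) by DESeq2, and 0 in the rest; leaving out 1 sample gave 0 to 3, with 3 without the library labelled WT ns 1 and 2 without WT LPS 1 or WT ns 5. Over all genes, calls under LPS ran from 0 to 8783 in KO (3542 as reported) and from 0 to 8696 in WT (0). For KO against WT they ran from 110 to 358 over both sexes (137), 2 to 27 in males (3), 3 to 210 in females (52), 0 to 157 at ns (18) and 0 to 135 at LPS (20), and for female against male WT from 10 to 153 (23). For KO against WT, DESeq2 called 1 member over both sexes (Trf), 1 at ns (Slc39a14) and 1 at LPS (Trf). Without the 2 neutrophil-rich WT animals 1 was called over both sexes (Fth1) and 2 in females (Fth1 and Ftl1); leaving out 1 animal gave 0 to 1, the 1 without male WT 5. No call changed direction in any alternative. With a replicate block, KO had 7 members called (Tfrc added), WT 0 and the other contrasts 0; same-numbered samples correlated over 0.1 in 7 of 24 pairs of the first experiment (mean 0.007) and 34 of 48 of the second (mean 0.24, against 0.021 and 171 of 360 for other numbers). The numbers were not taken as pairing, although the second experiment holds a hint of shared deviation. Its same-numbered pairs always shared a library set, while the other pairs also crossed sets. Deviations were taken from group means and not from set means, so pairing and library set cannot be told apart here. Steap3, at 2.46 to 4.54 CPM, was not tested in the sex experiment under the filter of 5 CPM. Leaving out the 6 libraries, these with WT number 2, and the 2 WT animals was chosen after seeing the data.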
